A study of Mus musculus with 5 samples.

Results

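Cytosolic ribosomal protein genes encode the protein part of the ribosome that translates nuclear-encoded messages, and their promoters were described here in the open chromatin of mouse bone marrow progenitors. Members were chosen by name from protein-coding genes of chromosomes 1 to 19 and X: Rpsa, or Rpl, Rps or Rplp followed by a number and at most the suffix a, a1 or x. Pseudogenes, Rps6k kinases, mitochondrial Mrp genes, retrogene names and paralogs whose names carry an added l were left out. This gave 77 of 21631 genes, of which 43 encode proteins of the large subunit, 31 proteins of the small subunit and 3 the acidic stalk. The rule used no measured value, though it was set with earlier results of these data known.

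Chromatin accessibility was measured by bulk ATAC-seq, in which a transposase cuts and tags open DNA. The cells were HSPC, haematopoietic stem and progenitor cells, from lineage-depleted bone marrow, and the deposited data were 1 list of peaks per library. In the group called Smc3-het here, 2 libraries came from mice labelled Mx1-Cre+ and inv(16);Smc3 D/+. In the group called Smc3-wt, 3 libraries came from mice labelled Mx1-Cre+ and inv(16);Smc3 +/+. All 5 libraries thus carried Mx1-Cre and inv(16) and had received PIPC, a double-stranded RNA that induces interferon. The comparison asks how chromatin differs with heterozygosity for Smc3 on an inv(16) background. Smc3 belongs to cohesin, a ring-shaped complex that folds chromatin and pairs sister chromatids. Mx1-Cre is driven by an interferon-responsive promoter that is active in many cell types, so recombination need not be confined to blood cells. The labels used here give no age, no sex and no statement that each library was a separate mouse, so the spread behind the p-values is that between libraries and may be technical.

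Ribosomal protein genes are among the most transcribed genes of proliferating cells, and their products are needed in near-equal numbers. Their mammalian promoters usually lack a TATA box and start transcription at a C within a run of pyrimidines. The resulting mRNAs begin with a 5′ terminal oligopyrimidine (TOP) tract, through which mTOR signalling controls their translation. Blood formation is sensitive to the supply of these proteins: in humans, loss of 1 copy of several of the genes causes Diamond-Blackfan anaemia, a failure of red cell production.

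Promoter sequences are given for members whose start lies inside a longer annotated span and for some of the most and least accessible members. Rps18 and Rpsa are added. Each line gives 80 bases before to 20 bases from the annotated start, from RefSeq, build GRCm38.p6, the same build as mm10. Capitals mark the ETS core CCGGAA or its reverse complement, and a TOP-type run. Such a run is a C and at least 4 further C or T, read from a C within 5 bases of the annotated start. In Rpl34 the pyrimidines extend further upstream, unmarked.
Rpl19: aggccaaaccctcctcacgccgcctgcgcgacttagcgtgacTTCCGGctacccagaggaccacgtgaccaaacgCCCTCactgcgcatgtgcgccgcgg
Rps2: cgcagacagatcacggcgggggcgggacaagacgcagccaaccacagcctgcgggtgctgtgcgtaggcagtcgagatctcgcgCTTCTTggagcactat
Rpl22: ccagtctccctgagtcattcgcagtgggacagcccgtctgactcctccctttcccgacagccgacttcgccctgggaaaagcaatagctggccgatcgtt
Rps3a1: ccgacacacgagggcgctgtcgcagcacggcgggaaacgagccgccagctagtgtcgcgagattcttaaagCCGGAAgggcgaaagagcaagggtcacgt
Rpl34: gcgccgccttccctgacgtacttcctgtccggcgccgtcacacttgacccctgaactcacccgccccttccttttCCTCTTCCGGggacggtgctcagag
Rps10: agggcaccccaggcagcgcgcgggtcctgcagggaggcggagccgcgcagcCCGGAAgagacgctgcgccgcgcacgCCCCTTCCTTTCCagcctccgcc
Rpl23: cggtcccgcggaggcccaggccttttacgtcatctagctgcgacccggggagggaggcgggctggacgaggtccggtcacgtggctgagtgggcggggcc
Rps18: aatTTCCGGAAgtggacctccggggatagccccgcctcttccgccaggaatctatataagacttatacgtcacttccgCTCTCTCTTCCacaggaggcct
Rpsa: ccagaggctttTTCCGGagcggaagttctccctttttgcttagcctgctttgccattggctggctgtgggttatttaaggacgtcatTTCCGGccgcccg
The first 3 are starts that lie inside a longer annotated span: Rpl19 at chr11:98026630-98026729, Rps2 at chr17:24719983-24720082 and Rpl22 at chr4:152325646-152325745, all on the plus strand. Rps3a1, at chr3:86142649-86142748, and Rpl34, at chr3:130730318-130730417, both on the minus strand, are among the 5 most accessible members. Rps10, at chr17:27635225-27635324, and Rpl23, at chr11:97782420-97782519, both on the minus strand, are among the 5 least accessible. Rps18, at chr17:33955646-33955745 on the minus strand, lies between other gene ends, and Rpsa, at chr9:120127686-120127785 on the plus strand, holds the core in 2 places. In Rpl34 the ETS core overlaps the end of the pyrimidine run, and in Rps18 both orientations of the core overlap in 1 palindrome. An ETS core stands in the printed bases of both Rps3a1, an accessible promoter, and Rps10, a weak one.

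The libraries differed in depth and in signal before any gene was considered. Background coverage, the fragment pileup outside enriched sites as solved from each list, was between 1.93 and 3.59 fragments per base. The lists held 26873 and 36448 peaks on chromosomes 1 to 19 and X in Smc3-het, against 65828, 102799 and 121082 in Smc3-wt. The number of mapped fragments is unknown here, so no counting interval is given. Of the HSPC markers, Meis1, Myb and Flt3 had a gene-end peak in all 5 libraries, Kit and Cd34 in 4, Gata2 in 3 and Mpo in 2. The erythroid gene Klf1 had one in 5 of 5, the B cell gene Ms4a1, the T cell gene Cd3e, the neutrophil gene Ly6g and the liver gene Alb in 0. At the Smc3 gene end the log2 pileup relative to the median gene end was 0.53 and 0.97 in Smc3-het against 1.00, 1.23 and 1.08 in Smc3-wt, which cannot check the deleted allele. Y-linked Kdm5d, Eif2s3y, Uty and Ddx3y had peaks in Smc3-wt replicates 1 and 3 and in none of the other 3 libraries.

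Nearly every ribosomal protein gene had an accessible gene end in every library. A peak within 1 kb of either end of the gene was present in 5 of 5 libraries at 73 of 77 members, 94.8%, against 44.7% of all protein-coding genes. Per library, 73 members had such a peak in each Smc3-het library and 74, 74 and 75 in Smc3-wt replicates 1, 2 and 3, while the share of all genes ran from 49.3% to 64.02%. The 4 exceptions were Rpl19, Rpl22, Rps2 and Rpl17, and all 77 members had a peak within the gene or within 1 kb of it in 5 of 5 libraries.

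At 3 of the 4 exceptions the peak stood at a start printed above. Level here means the pileup at the strongest summit divided by the background coverage of the same library, a fold over background. At the inner start of Rpl19, a large subunit protein, the level was 15.03 and 15.7 in replicates 1 and 2 of Smc3-het against 14.6, 26.5 and 20.2 in Smc3-wt replicates 1, 2 and 3. At that of Rps2, a small subunit protein, it was 17.5 and 13.7 in Smc3-het against 21.1, 21.8 and 23.1 in Smc3-wt. At that of Rpl22, a large subunit protein, it was 15.9 and 24.6 in Smc3-het against 42.3, 49.3 and 57.2 in Smc3-wt. Rps2 and Rpl22 were lower in both Smc3-het libraries than in every Smc3-wt library, as were most gene ends on this scale, and Rpl19 overlapped between the groups. Rpl17, of the large subunit, at chr18:74998978-75003381, had an inner peak of 22.3 and 19.8 in Smc3-het against 24.8, 31.7 and 46.6 in Smc3-wt. All 4 genes were thus accessible, but the gene-end measure leaves them out of the tests below.

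Accessibility of the other 73 members was close to that of the typical accessible gene end. In each library the members were ranked among the 9666 gene ends with a peak in 5 of 5 libraries. Their median percentile was 58.1 and 58.9 in Smc3-het against 52.2, 52.6 and 52.1 in Smc3-wt. The median level of the members was 14.5 and 18.5 in Smc3-het against 29.9, 31.7 and 40.004 in Smc3-wt. The median over all 9666 gene ends was 13.1 and 16.4 in Smc3-het against 28.6, 30.1 and 38.7 in Smc3-wt. Lower levels in Smc3-het were thus a feature of gene ends as a whole. Of the 73 members, 26 stood above the median gene end in 5 of 5 libraries, 14 below it in 5 of 5, and 33 on both sides. None of the 73 stood above percentile 90 in all 5 libraries and none below percentile 10 in all 5, although 4 to 8 members passed percentile 90 in any single library.

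**Figure D1:**
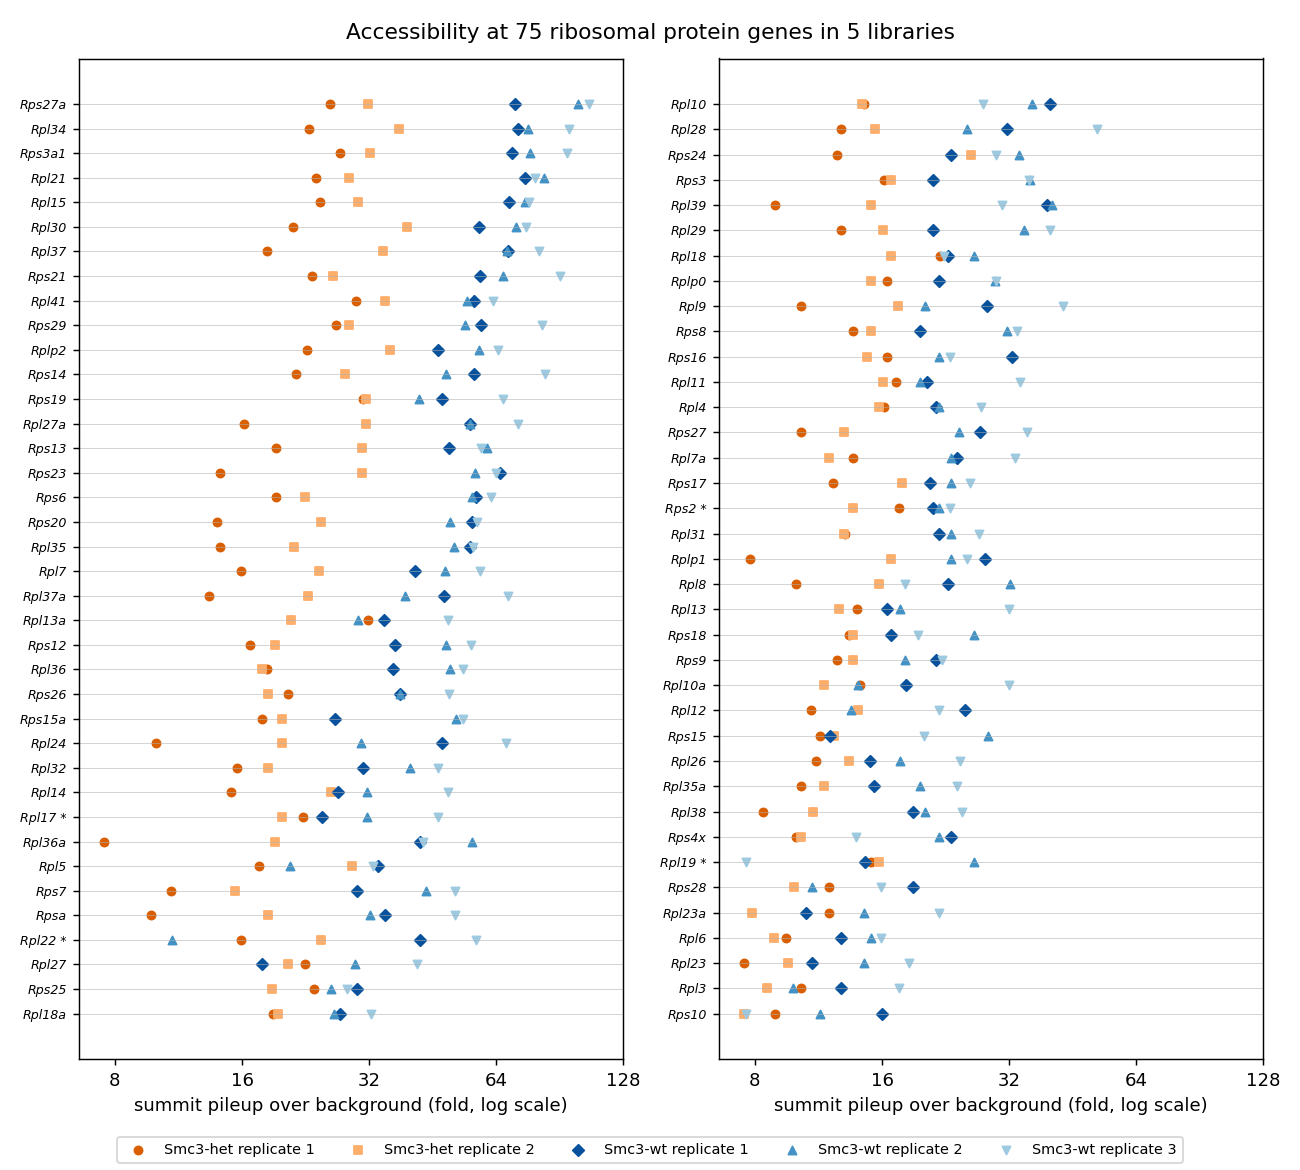
Level of 75 of the 77 ribosomal protein genes, as summit pileup over library background on a log axis, with 1 symbol per library and genes ordered by their mean. The 4 highest genes drawn lie between 23.1 and 37.6 in Smc3-het and between 69.6 and 106 in Smc3-wt; genes marked with an asterisk lack a gene-end peak in at least 1 library and are drawn at their strongest peak found, which for Rpl19 in Smc3-wt replicate 3 and Rpl22 in Smc3-wt replicate 2 is not the one at the start.

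**Figure D2:**
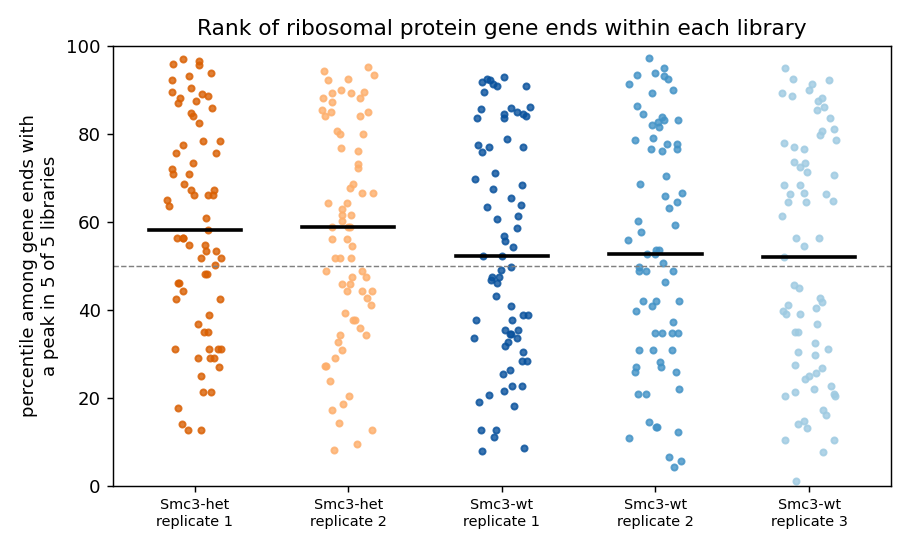
Percentile of each of the 73 ribosomal protein gene ends among the 9666 gene ends with a peak in all libraries, with 1 point per gene and a bar at the median. Medians lie at 58.1 and 58.9 in Smc3-het and between 52.1 and 52.6 in Smc3-wt, and points fill nearly the whole range.

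The spread between members was several-fold. The plot of levels by gene shows the most accessible member at 4.22 times the level of the least accessible in Smc3-het replicate 1, and at 5.23, 7.07, 10.2 and 14 times in Smc3-het replicate 2 and Smc3-wt replicates 1, 2 and 3. The SD of the log2 level over the members was 0.53 and 0.59 in Smc3-het against 0.77, 0.79 and 0.80 in Smc3-wt. The same SD over all gene ends was wider in each library, from 0.68 to 0.97. The order of the members was shared most closely among the Smc3-wt libraries. Spearman's rho across the 73 genes was 0.854 to 0.870 for the 3 Smc3-wt pairs, 0.826 to 0.849 between Smc3-het replicate 2 and each Smc3-wt library, and 0.575 to 0.641 between Smc3-het replicate 1 and each of them. Between the 2 Smc3-het libraries it was 0.715 over the members and 0.802 over all gene ends. These points share libraries and promoter composition. Over all gene ends, rho between Smc3-het replicate 1 and each Smc3-wt library was also the lowest, 0.715 to 0.736.

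Of the 5 most accessible members, 4 are described here, and they encode proteins of both subunits. Rps27a, made as a fusion of ubiquitin and a small subunit protein, at chr11:29545842-29548040, had levels of 25.9 and 31.8 in Smc3-het against 71.1, 100.2 and 106 in Smc3-wt. Its percentile was 92.3 and 89.6 in Smc3-het against 91.8, 97.3 and 94.9 in Smc3-wt, so its rank overlapped between the genotypes. The peak lay within 1 kb of an end of Clhc1 too, in 5 of 5 libraries.

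Rpl34, of the large subunit, had levels of 23.1 and 37.6 in Smc3-het against 72.2, 76.3 and 95.2 in Smc3-wt. Rps3a1, of the small subunit, had 27.3 and 32.2 in Smc3-het against 69.6, 76.8 and 94.2 in Smc3-wt. For both genes the printed starts lay close to the summit: 17 to 63 bp upstream of it in Rpl34 and 20 to 142 bp in Rps3a1. Rpl21, of the large subunit, had 23.9 and 28.7 in Smc3-het against 74.7, 83.1 and 79.0 in Smc3-wt. In these 4 genes every Smc3-het level was below every Smc3-wt level, on a scale where the same holds for 87.3% of all gene ends and for 61 of the 73 members.

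The 5 least accessible members also came from both subunits. Rps10, a small subunit protein whose human counterpart is a Diamond-Blackfan anaemia gene, at chr17:27630415-27635244, had levels of 8.91 and 7.53 in Smc3-het against 16.0, 11.4 and 7.60 in Smc3-wt. It was the lowest member in Smc3-het replicate 2 and in Smc3-wt replicate 3, where its percentile was 8.22 and 1.13, and the groups overlapped. Rpl3, of the large subunit, had 10.3 and 8.55 in Smc3-het against 12.8, 9.87 and 17.5 in Smc3-wt. Rpl23, which binds MDM2 besides its place in the large subunit, had 7.52 and 9.58 in Smc3-het against 10.9, 14.5 and 18.5 in Smc3-wt.

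Rpl6, of the large subunit, had levels of 9.47 and 8.90 in Smc3-het against 12.8, 15.1 and 15.9 in Smc3-wt. Rpl23a, of the large subunit, had 11.97 and 7.87 in Smc3-het against 10.6, 14.5 and 21.8 in Smc3-wt. Only Rpl23 and Rpl6 of these 5 had both Smc3-het levels below every Smc3-wt level.

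Several ribosomal protein promoters could not be separated from a neighbour. At 18 of the 73 members the strongest peak lay within 1 kb of an end of another protein-coding gene in at least 1 library. Examples in 5 of 5 libraries were Rpl15 with Nkiras1, Rpl9 with Lias and Rps28 with Ndufa7. At Rpl4 the strongest gene-end peak was that of the Snapc5 end in 5 of 5 libraries. Its level there was 16.1 and 15.7 in Smc3-het against 21.5, 21.8 and 27.4 in Smc3-wt. At the annotated start of Rpl4 itself the level was 9.74 and 8.90 in Smc3-het against 20.4, 19.2 and 22.2 in Smc3-wt. At Rps18 the strongest peak lay near B3galt4 in 3 libraries and, in Smc3-wt replicates 2 and 3, at the printed start, within 1 kb of Vps52. Its level at that start was 12.8 and 11.3 in Smc3-het against 16.0, 26.5 and 19.5 in Smc3-wt. Peaks at Rpl18 were also apart from the annotated start: the start level was 11.4 and 11.98 in Smc3-het against 13.9, 17.7 and 23.1 in Smc3-wt, and the gene-end level 22.0 and 16.8 in Smc3-het against 23.0, 26.5 and 22.5 in Smc3-wt. The values below are those of gene ends.

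No ribosomal protein gene end was called different between Smc3-het and Smc3-wt. The test was limma on the log2 pileup, with each library centred on its median over the 9666 gene ends and p-values adjusted by Benjamini-Hochberg over all of them. Of the 73 members, 0 were lower in Smc3-het at an adjusted p below 0.05, against 0.114% of all gene ends, and 0 were higher, against 0.207%. At an unadjusted p below 0.05, 2 members were lower and 11 higher, beside 1112 lower and 1098 higher among all gene ends. Limma with a trend called 0 members in each direction too, beside 516 lower and 142 higher among all gene ends. The smallest adjusted p of a member in that limma fit was 0.0516. The median log2 difference of the members was 0.08, that of all gene ends −0.00, and 40 members lay above 0 and 33 below.

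On the centred scale, both Smc3-het libraries were below every Smc3-wt library at 11 members, against 22.5% of all gene ends, and above at 18, against 19%. The other 44 members overlapped. The 11 were 15.1% and the 18 were 24.7% of the members. Without centring, limma called 49 of 73 members lower in Smc3-het at an adjusted p below 0.05, 67.1% against 81% of all gene ends. It called 0 higher, against 0.0207%. The uncentred log2 difference was below 0 at all 73 members, called or not. On that scale the median log2 difference was −1.05 over the members and −1.14 over all gene ends. The uncentred fall was thus shared by gene ends in general, and depth, signal over background and genotype cannot be told apart in it.

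Genes with long-studied roles gave differences in both directions, none of which passed adjustment in the same limma test. Rps19, the most often mutated gene of human Diamond-Blackfan anaemia, at chr7:24884592-24889811, had levels of 30.9 and 31.5 in Smc3-het against 47.7, 42.1 and 66.5 in Smc3-wt. Its percentile was 96.6 and 89.2 in Smc3-het against 77.1, 68.6 and 79.9 in Smc3-wt, higher in both Smc3-het libraries than in any Smc3-wt library. The centred log2 difference was 0.42 with SE 0.23 and an adjusted p of 0.295 in limma. With fold enrichment in place of pileup the difference was 0.010.

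Rpl5 and Rpl11 encode large subunit proteins that, with 5S RNA, bind MDM2 when ribosome assembly fails. Rpl5 had levels of 17.5 and 29.1 in Smc3-het against 33.5, 20.8 and 32.7 in Smc3-wt. Its percentile was 72.1 and 85.5 in Smc3-het against 58.6, 28.2 and 40.4 in Smc3-wt. Rpl11 had levels of 17.3 and 16.1 in Smc3-het against 20.4, 19.7 and 34.1 in Smc3-wt, and its percentile was 70.9 and 48.9 in Smc3-het against 31.9, 25.9 and 42.8 in Smc3-wt. Both thus ranked higher in each Smc3-het library than in every Smc3-wt library, with centred log2 differences of 0.81 (SE 0.27, limma adjusted p = 0.127) and 0.61 (SE 0.25, limma adjusted p = 0.177).

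Rpsa, the laminin receptor precursor of the small subunit, had levels of 9.74 and 18.5 in Smc3-het against 34.99, 32.2 and 51.2 in Smc3-wt. Its centred log2 difference was −0.39 (SE 0.25, limma adjusted p = 0.364), and the groups overlapped. It was −0.094 without Smc3-het replicate 1 and −0.69 without Smc3-het replicate 2. Rplp0, the stalk protein that anchors Rplp1 and Rplp2 to the large subunit, had 16.4 and 15.1 in Smc3-het against 21.9, 29.6 and 29.8 in Smc3-wt, a centred difference of 0.37 (SE 0.25, limma adjusted p = 0.389). Rps14, whose human counterpart lies in the region lost in the 5q- syndrome, had 21.4 and 28.1 in Smc3-het against 56.9, 48.8 and 83.6 in Smc3-wt. Its centred difference was −0.19 (SE 0.23, limma adjusted p = 0.645).

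The centred difference varied with mean level, over the members as over all gene ends. That mean is taken from the same 5 centred values as the difference, and log2 levels spread less in Smc3-het. The order is thus not read as a separate result about the members, and the part of scale in it was not tested. When gene ends were split into 3 equal groups by their mean level over all 5 libraries, 1 of the 16 members in the lowest group lay below 0, 10 of 30 in the middle and 22 of 27 in the highest. All gene ends showed the same order, with 25.1%, 50.03% and 75.3% below 0. The median log2 difference was 0.48, 0.23 and −0.29 over the members of the lowest, middle and highest group, beside 0.30, −0.00 and −0.27 over all gene ends. Under quantile normalization, which gives each library the same distribution, 43.8%, 49.3% and 55.7% of all gene ends lay below 0, and 1 of 16, 10 of 30 and 17 of 27 members. The highest group holds Rps27a at −0.53 and Rpl21 at −0.45, and the lowest group Rps10 at 0.69 and Rpl3 at 0.66. A difference for a single member in this comparison is thus read against its level, as the plot of difference against level shows.

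**Figure D3:**
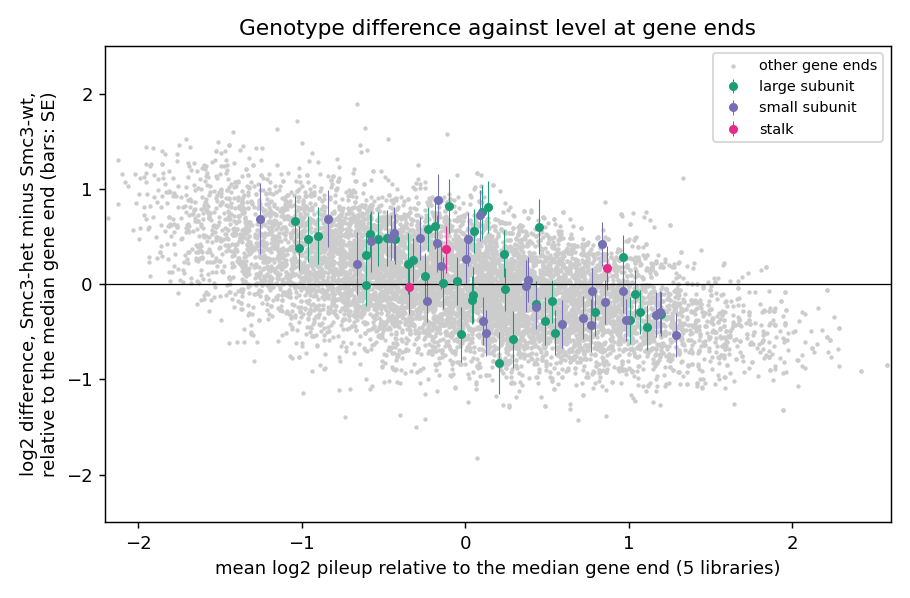
Centred log2 difference, Smc3-het minus Smc3-wt, against the mean log2 pileup relative to the median gene end, for 73 ribosomal protein genes (coloured by subunit, bars are SE) and the other gene ends (grey). Values fall from left to right in both: 15 of 16 ribosomal protein genes in the lowest group lie above 0 and 22 of 27 in the highest group below 0.

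By role in the ribosome, the subsets differed little. The median centred log2 difference was 0.15 over 40 large subunit genes, 0.01 over 30 small subunit genes and 0.17 over the 3 stalk genes, none of them called in either direction. Among the stalk genes, Rplp2 had levels of 22.8 and 35.9 in Smc3-het against 46.7, 58.2 and 64.8 in Smc3-wt. Rplp1 had 7.79 and 16.8 in Smc3-het against 28.1, 23.4 and 25.5 in Smc3-wt. Both encode acidic proteins that recruit translation factors, and their centred values overlapped between the genotypes.

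The 18 members whose human counterparts are Diamond-Blackfan anaemia genes were all tested. Their median centred log2 difference was 0.45, with 13 above 0 and 5 below, and 6 were higher and 0 lower at an unadjusted p below 0.05, beside 1098 higher and 1112 lower of all 9666 gene ends. None passed adjustment. Their median percentile was 53.2 and 53.9 in Smc3-het against 38.3, 39.6 and 41.6 in Smc3-wt, so they were less accessible than the members as a whole in each library. Under quantile normalization the median difference of the list was 0.39, beside 0.004 over all gene ends. The list was not tested as a set, and the part of level in its difference was not tested.

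The 4 X-linked members had a median centred log2 difference of −0.32, beside 0.17 over the 69 autosomal members. Rpl36a, of the large subunit, at chrX:134585654-134588062, had levels of 7.52 and 19.2 in Smc3-het against 42.3, 56.1 and 43.0 in Smc3-wt, with a centred difference of −0.83 (SE 0.32, limma adjusted p = 0.165). That difference was −0.32 without Smc3-het replicate 1 and −1.34 without Smc3-het replicate 2. Rpl39, of the large subunit, had 8.91 and 15.1 in Smc3-het against 39.4, 40.5 and 30.7 in Smc3-wt, a centred difference of −0.53. Smc3-het replicate 1 was the lowest library at both genes, and the centred values overlapped between the genotypes.

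Rpl10, a large subunit protein of the ribosome's joining face, had levels of 14.5 and 14.4 in Smc3-het against 40.1, 36.3 and 27.8 in Smc3-wt, a centred difference of −0.12. Rps4x, the X-linked small subunit gene, had 10.02 and 10.3 in Smc3-het against 23.3, 21.8 and 13.9 in Smc3-wt, a centred difference of 0.21. The median over all 239 X-linked gene ends tested was −0.22. The Y-linked peaks named above were found in Smc3-wt replicates 1 and 3 only, and the part of sex in the X-linked values was not tested.

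Gene ends of other translation genes gave no calls either. Mitochondrial ribosomal protein genes, which serve the separate ribosome of mitochondria, had a gene-end peak in 5 of 5 libraries at 68 of 78, 87.2%, a median centred difference of 0.03, and 0 calls in either direction. Of 24 translation genes with TOP mRNAs, among them elongation factors, 23 were tested, with a median of −0.03 and 0 calls. Of 38 genes of ribosome assembly and rRNA synthesis, 37 were tested, with a median of 0.01 and 0 calls. The median of their members' mean percentile was 52.6, 60.7 and 54.8 for these 3 lists and 53.4 for the ribosomal protein genes.

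Of the 8 paralogs whose names carry an added l, 4 were tested and 0 were called. Rpl22l1, the paralog of Rpl22, had levels of 15.03 and 36.3 in Smc3-het against 69.3, 71.7 and 72.1 in Smc3-wt. Rpl36al, a paralog of Rpl36a, had 25.1 and 32.5 in Smc3-het against 62.3, 78.4 and 74.7 in Smc3-wt. In the Smc3-wt libraries the percentile was at least 83.5 for Rpl22l1 and at least 85.1 for Rpl36al. Rpl7l1 had 11.97 and 18.5 in Smc3-het against 20.4, 24.9 and 25.5 in Smc3-wt.

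Rpl3l, the striated muscle paralog of Rpl3, had a gene-end peak of 14.5 and 13.0 in Smc3-het against 15.7, 19.2 and 23.5 in Smc3-wt. That peak lies within 1 kb of an end of Msrb1, and no library had a peak at the start of Rpl3l. Rps27l, the paralog of Rps27, had a peak in or near the gene in 5 of 5 libraries, at 16.1 and 14.4 in Smc3-het against 21.1, 19.2 and 33.1 in Smc3-wt. Rpl10l, an autosomal retrogene of Rpl10 used in the testis, Rpl39l and Rpl32l had no peak in or within 1 kb of the gene in any library.

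Peaks at ribosomal protein genes were centred close to the annotated start. Of the 73 members, 54 have a start in the RefSeq promoter table. The median distance between summit and nearest annotated start was 119 and 102 bp for Smc3-het against 115, 110.5 and 98.5 bp for Smc3-wt. Over 7911 gene ends with a start it was 143 to 147 bp. The summit lay within 150 bp of a start at 61.1% to 68.5% of the members, against 51.1% to 52.1% of all. It was downstream of the start in 32 to 36 of 54 members, depending on the library. At Rps19 the summit lay 315 to 429 bp upstream of the start, depending on the library.

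**Figure D4:**
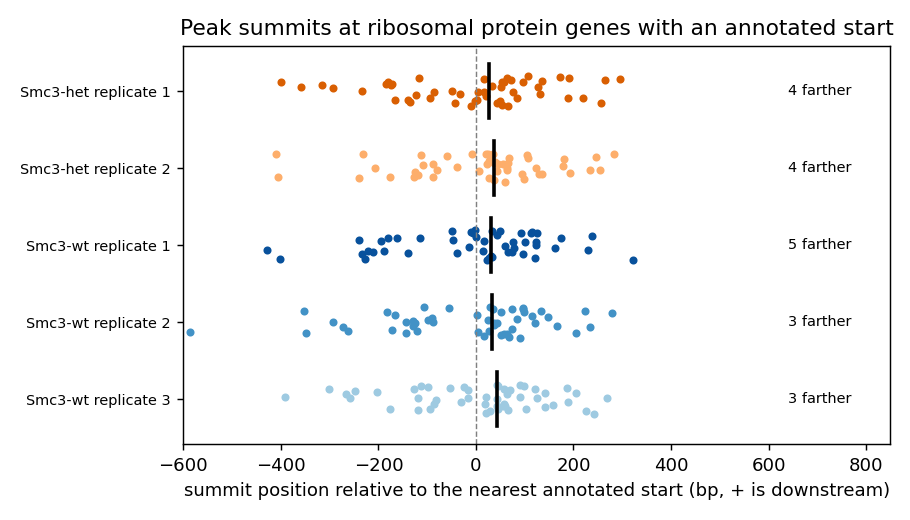
Position of the strongest peak summit relative to the nearest annotated start for the 54 ribosomal protein genes with one, 1 point per gene, with a bar at the median of each library. Medians lie 27 to 44 bp downstream of the start, and 3 to 5 genes per library lie beyond the axis.

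The median width of the peaks was 739 and 831 bp for Smc3-het against 987, 952 and 1074 bp for Smc3-wt. Over all 9666 gene ends it was 789 and 851.5 bp for Smc3-het against 1047, 992 and 1152 bp for Smc3-wt. In each library the members' median was thus below that of all gene ends, and in both sets Smc3-het peaks were the narrower. Signal over background was lower in Smc3-het, and its part in the widths was not tested.

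RefSeq promoter windows, 250 bases before to 50 after a start, were found for 57 of the 77 members, as 67 windows. The ETS core CCGGAA was present in 49.3% of these windows, 57.3% of 75 windows of mitochondrial ribosomal protein genes, 30.5% of the windows of all gene ends tested and 18.9% of all windows. The YY1 motif AANATGGC was present in 22.4%, 28%, 9.18% and 6.41% of the same 4 sets. The Sp1 motif GGGCGG was present in 61.2%, 52%, 64.4% and 46.7%, and the E-box CACGTG in 11.9%, 9.33%, 10.3% and 7.91%. TATAAA was present in 8.96%, 6.67%, 6.76% and 12.7%. These motifs were searched on both strands and may overlap, and a match is a description of letters only.

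The TOP-type start, searched on the sense strand only, set the cytosolic genes beside the mitochondrial ones. A C at the annotated start followed by 4 bases that are C or T stood in 19.4% of the member windows and in 0 of the 75 mitochondrial ribosomal protein windows, against 2.12% of the windows of gene ends tested and 2.23% of all. With the start base allowed within 5 bases, it was 43.3% and 22.7%, against 19.6% and 18.7%. The printed starts of Rpl34, Rps10, Rps18, Rpl19 and Rps2 hold it and those of Rps3a1, Rpl23, Rpl22 and Rpsa do not. The median share of G and C was 58.3% in member windows and 61% in those of all gene ends tested, with a median of 21 CpG in both.

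**Figure D5:**
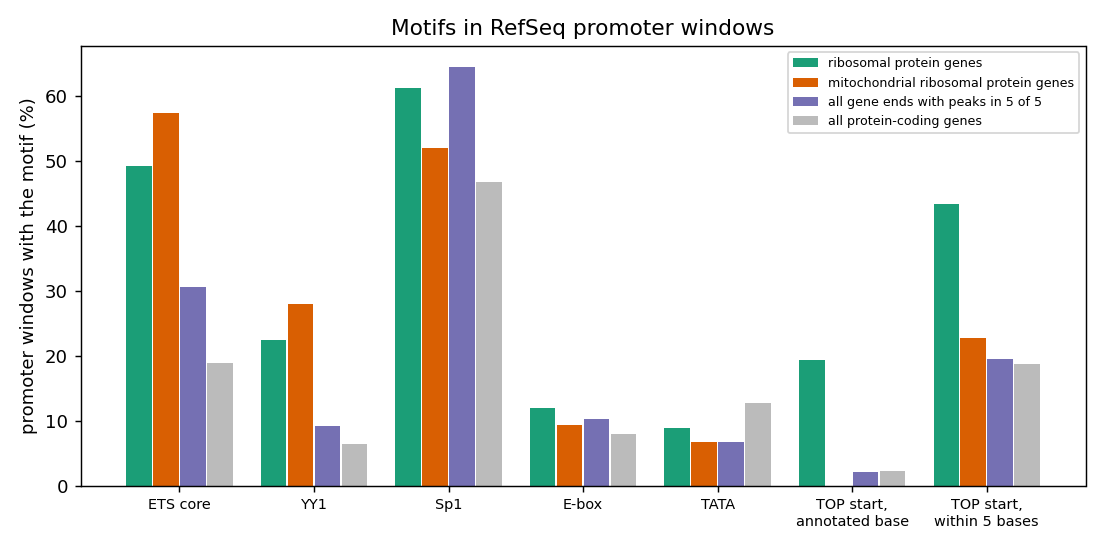
Share of RefSeq promoter windows with each motif in 4 sets of genes. The ETS core stands in 49.3% of ribosomal protein windows and 57.3% of mitochondrial ones, and a TOP-type start at the annotated base in 19.4% of the former and 0 of the latter.

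Accessibility was also set beside motif content. Among the members tested that have a single promoter window, the median of the mean percentile was 53.7 in the 26 with the ETS core and 45.1 in the 22 without. It was 54.9 in the 28 with the Sp1 motif and 45.7 in the 20 without. It was 61.0 in the 11 with a TOP-type start at the annotated base and 51.3 in the 37 without, but 51.2 in the 21 with one within 5 bases and 51.8 in the 27 without. The median centred log2 difference was 0.11 with and 0.29 without the ETS core, and 0.05 with and 0.29 without the TOP-type start within 5 bases. These are descriptions, and no test was made of them.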

How the data were processed

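Per the submitters' processing notes, ATAC-seq reads were aligned to mm10 by Bowtie2 and MACS2 called the peaks; no version is given in the sources used here. Each library has its own list, without pooling. The deposited lists hold a coverage signal (fragment pileup at the summit, not scaled to depth) and, per the file headers, the ratio of that pileup to local background (fold enrichment). The headers of 2 further deposited columns were lost, and by order and values they are −log10 p and −log10 q.

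Background coverage is the commonest value per list that pileup and fold give when the pseudocount of 1 of MACS2 is undone. The strongest summit within 1 kb of either gene end (RefSeq, GRCm38.p6; neither strand nor exons in that table) gave a level (pileup over background) and a percentile. Groups were taken from sample titles. Gene ends with a peak in 5 of 5 libraries were tested with limma 3.58.1 in R 4.3.3 on log2 pileup, centred per library, with Benjamini-Hochberg adjustment over 9666 gene ends; the fit was tested on simulated data. Replicate numbers were not used to pair libraries in the main fit, and whether they mark anything shared between genotypes is unknown. Same-numbered libraries had deviations correlated at −0.09 and −0.05. With 2 Smc3-het libraries, the deviations of 1 are the exact negatives of the other's, so these values cannot decide on pairing. Named genes were members without a gene-end peak in some library, the 5 highest and 5 lowest levels, Rpsa, Rplp0, Rps19, Rpl5, Rpl11, Rps14, X-linked members and all paralogs. Members and lists were chosen with earlier results of these data known. Alternatives covered centring, normalization, the gene-end window, filters, fold enrichment, equal-size lists, a trend, a replicate block and leaving out each library. Sequences from chromosome 18 are not printed, and some genes that the rule names or the lists hold are not reported here.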

Additional observations from a re-analysis of the deposited data

How the results depend on the processing

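Counts of calls among the ribosomal protein genes stayed at 0 lower and 0 higher under every alternative except 2: without centring 49 were lower, and without the filter, with missing peaks set to background, 1 was lower (Rpl22, log2 difference −3.76) and 2 were higher (Rps2 and Rpl17, 1.13), each at a limma adjusted p of 0.0222. For Rps2 and Rpl17 all values were imputed, since their peaks lie inside the gene and outside the gene-end window. For Rpl22 only the Smc3-het values were imputed. Its Smc3-wt values were gene-end peaks, at levels of 42.3, 10.9 and 57.2 in replicates 1, 2 and 3. That of replicate 2 was not the peak at the start. These calls thus depend on imputed values. The median log2 difference of the members, 0.08, was −1.05 without centring, 0.12 with quantile normalization, 0.010 with fold enrichment, 0.16 and 0.023 with windows of 500 bp and 2.5 kb, 0.10 in equal-size lists, 0.11 at a −log10 q of at least 10, 0.16 without the filter, and 0.067 to 0.18 when leaving out 1 library. Alternatives chosen after seeing the data gave 0.17 at annotated starts, 0.14 anywhere in the gene or within 1 kb, and 0.13 there with quantile normalization. The median percentile, 53.4, was 45.3 at the stricter q and 57.4 anywhere in the gene; 61 to 77 members had a peak in 5 of 5 libraries over the alternatives. Over all gene ends the calls, 11 lower and 20 higher, were 516 and 142 with a trend, 49 and 76 at the stricter q, 10 and 28 with the window of 500 bp, 15 and 56 with that of 2.5 kb, 15 and 8 in equal-size lists, 650 and 6054 without the filter, 7831 and 2 without centring, and 0 and 0 with quantile normalization or fold enrichment. With a replicate block, members gave 0 and 0 calls and a median of 0.08, and all gene ends 65 and 134. Leaving out Smc3-wt replicate 2 gave 14 and 52 calls over all gene ends, and leaving out any of the other 4 gave 0 lower and at most 1 higher. Without centring, differences turned to −0.52 for Rpl11, −0.33 for Rpl5, −0.77 for Rplp0, −0.71 for Rps19 and −0.92 for Rps4x. Rps14 turned to 0.014 with quantile normalization and 0.011 with that anywhere in the gene, and Rps4x to −0.15 with the block. With fold enrichment, differences were 0.010 for Rps19, 0.064 for Rplp0, 0.26 for Rpl11, −0.082 for Rps27a, −0.26 for Rpl39 and −0.33 for Rpl36a. Leaving out 1 library gave −0.40 to 0.080 for Rpl10, −0.15 to 0.44 for Rps4x, −1.34 to −0.32 for Rpl36a, −0.69 to −0.094 for Rpsa, −0.78 to −0.31 for Rpl39 and 0.14 to 0.59 for Rplp0. The cause was not tested. Depth limits weak gene ends, and the number of mapped fragments is unknown.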
